A study of Mus musculus with 6 samples.

Results

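The C1q-high macrophages of the PHZ spleen were the cells of that section with at least 10 raw counts of C1qa, C1qb and C1qc together. They numbered 9045 of 94582 cells (9.56%, exact binomial 95% interval 9.38–9.75), out of 521938 cells in the 6 sections of the series. Because the cells were chosen by their C1q counts, the C1q levels below describe the choice and support nothing else. They were set against the 34801 cells of the section with 0 C1q counts, called C1q-zero cells (36.8%). The remaining 50736 cells (53.6%) held 1 to 9 C1q counts and belong to neither set.

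The section came from the spleen of a wild-type (C57BL/6 per the methods) mouse that received 40 mg/kg phenylhydrazine (PHZ) into the peritoneum with 2 injections a day for 2 days. The comparison section came from the spleen of an adult wild-type mouse without treatment. By the figure legends both mice were 2 months old. Both were 5 µm sections on the same slide, imaged with the Xenium in situ method, which decodes single RNA molecules of 477 chosen genes (379 predesigned and 98 custom) and records their positions. A wild-type liver at E14.5 and a wild-type bone marrow at postnatal day 8 (P8) were imaged with the same genes on another slide, whereas the E13.5 liver and 89-week marrow used another panel and were not compared. With 1 section and 1 mouse per condition there were no replicates, so no test was possible. Intervals are exact Poisson or binomial 95% intervals, which cover counting error only, and treatment, mouse and section cannot be told apart.

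C1q is the recognition part of the classical complement pathway, is made largely by macrophages and binds dying cells among other targets. The spleen holds several macrophage populations. Those of the red pulp take up aged red cells and recycle their iron, while those of the marginal zone line the border with the lymphoid white pulp and carry receptors such as Marco, Siglec1 and Timd4. PHZ oxidizes hemoglobin and destroys red cells, after which the mouse spleen becomes a major site of red cell production, where erythroblasts mature in contact with macrophages.

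A cell here is the outline that the instrument's software drew by expanding a stained nucleus, so transcripts of a neighbor can fall inside it. The PHZ section held 11430388 counts with a median of 104 per cell, and the untreated section held 10351683 with a median of 84. C1q-high macrophages were larger than C1q-zero cells, with a median outline of 86.2 against 42.8 µm² and a median nucleus of 27.0 against 20.8 µm². They held a median of 157 counts of genes other than C1q (quartiles 109 and 221), whereas C1q-zero cells held 81 (49 and 129). Counts per area were alike, 164 and 167 per 100 µm². Levels below are therefore given as CPM, counts summed over all cells of a set and scaled to a total of 1000000 for the genes other than C1q. Levels of different genes are not compared, since their probes may differ in efficiency. Doublets were not called.

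The mean C1q-high macrophage held 17.3 C1q counts (median 14, highest 112), and these cells held 49.6% of all C1q counts of the section. C1qa gave 3.97, C1qb 8.23 and C1qc 5.10 counts per cell, and 8543 cells (94.4%) held all 3 subunits. Cells just inside and outside the limit looked alike. The 1329 cells with 10 C1q counts had 1.05 Mrc1, 0.318 Ms4a7, 0.127 Timd4 and 4.48 Slc4a1 counts each. The 1583 cells with 9 C1q counts had 0.972, 0.272, 0.135 and 4.45, so the limit cuts a continuous range.

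The share of C1q counts that came from C1qb was lower at higher C1q levels in the PHZ spleen. It was 55.3% in cells with 1 to 2 C1q counts, 51.0% with 3 to 9, 48.4% with 10 to 19 and 46.4% with at least 20. In the untreated spleen the same share lay between 39.1% and 39.8% over these levels. In the other 2 sections it was again lower at higher levels, going from 60.8% to 51.1% in the E14.5 liver and from 53.9% to 45.5% in the P8 marrow.

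The other proposed marker genes were checked against the C1q-zero cells. Mrc1, the mannose receptor, stood at 10431 against 798 CPM (13.1-fold, 12.5–13.6) and was seen in 60.4% against 6.42% of cells. Ms4a7, a macrophage membrane protein, stood at 2709 against 289 CPM (9.36-fold, 8.73–10.1) and was seen in 33.5% against 2.56%. Timd4, a receptor for phosphatidylserine on dying cells, stood at 1909.9 against 94.8 CPM (20.1-fold, 17.9–22.7) but was seen in only 15.5% against 0.862% of cells. With every cell thinned to 50 counts of other genes, which left out 116 C1q-high and 9002 C1q-zero cells, the shares were 34.9% against 3.77% for Mrc1, 13.7% against 1.49% for Ms4a7 and 7.44% against 0.495% for Timd4. By Mrc1 and Ms4a7 the macrophage label thus held for the set as a whole, which does not show it for each cell. Timd4 marked a minority of the set. Cells of the untreated spleen, under the same C1q rule, were thinned alike. There the C1q-high and C1q-zero shares were 54.96% and 3.04% for Mrc1 and 12.19% and 3.62% for Ms4a7. For Timd4 they were 11.17% and 13.99%, so of the spleens only the PHZ section had its higher share in C1q-high cells. The other sections were not thinned.

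Since the cells were chosen within the same table, all differences from C1q-zero cells are descriptions. Of 226 genes with at least 1000 counts over both sets, 51 (22.6%) were at least 2-fold higher in C1q-high macrophages and 49 (21.7%) at least 2-fold lower, with a median fold of 0.92 over all 226. The 2 shares together made 44.2%. Counted per cell in place of CPM, the split was 93 higher and 2 lower, and with the erythroid genes left out of the total it was 38 higher and 88 lower. Those scalings move every fold by the same factor, to medians of 1.67 and 0.622.

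Among 21 measured genes of the tissue macrophage list, 19 were at least 2-fold higher, none was lower, and the median was 6.52-fold. Siglec1, the sialic acid receptor of sinusoidal and metallophilic macrophages, stood at 1654 against 84.9 CPM (19.5-fold, 17.2–22.1). Marco, a scavenger receptor, stood at 13892 against 819.9 CPM (16.9-fold, 16.3–17.6). Vcam1, the adhesion molecule that erythroblasts bind on island macrophages, stood at 18132 against 1694 CPM (10.7-fold, 10.4–11.02). The pan-macrophage genes Cd68 (6.52-fold) and Adgre1, which codes for F4/80 (5.15-fold), were also higher. Cybb (1.06-fold) and Laptm5 (1.63-fold), which many leukocytes share, did not pass the 2-fold mark. Folr2, Lyve1 and Clec4f, a marker of liver Kupffer cells, were too sparse to enter, and Clec4f stood at 14.02 against 24.1 CPM. In the untreated spleen, thinned as above, Siglec1 was seen in 5.75% of C1q-high and 5.67% of C1q-zero cells and Marco in 10.42% and 12.43%. Vcam1 (78.34% and 15.71%), Cd68 (50.51% and 12.53%) and Adgre1 (32.00% and 11.35%) were higher there too. The large Siglec1 and Marco folds of the PHZ section were thus not matched by these shares in the untreated spleen. The E14.5 liver and P8 marrow were not compared in this way.

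Of the genes of iron handling and red cell clearance 9 of 14 were higher and 2 lower, with a median of 4.20-fold. Most of the higher ones, Timd4, Marco, Spic, Nr1h3, Cd163 and Cd68, are also in the tissue macrophage list, so this result largely repeats the one above. Spic, the transcription factor of red pulp macrophages, stood at 10604 against 1282 CPM (8.27-fold, 8.00–8.56). Slc40a1, the iron exporter ferroportin, stood at 43342 against 9833 CPM (4.41-fold, 4.35–4.47). Nr1h3, a nuclear receptor for oxysterols, was 7.77-fold higher, Cd163, the receptor for hemoglobin bound to haptoglobin, 7.45-fold and Trf, transferrin, 3.98-fold. The 2 lower genes were Tfrc, the transferrin receptor, abundant on erythroblasts (0.495-fold), and Hp, haptoglobin (0.404-fold). Dnase2a, the lysosomal enzyme that degrades DNA of expelled nuclei, differed little, at 4972 against 4419 CPM (1.13-fold, 1.09–1.16).

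Chemokines, cytokines and growth factors were higher in 10 of 19 cases and lower in none, with a median of 2.01-fold. Ccl9 stood at 26515 against 2955 CPM (8.97-fold, 8.78–9.17), which was 4.60 against 0.282 counts per cell. The ligands of Ccr2 were also higher, with Ccl12 at 9.48-fold, Ccl7 at 7.10-fold and Ccl2 at 3.56-fold. Igf1, an insulin-like growth factor, was 8.99-fold and Il18, an inflammasome cytokine, 8.96-fold higher, and Il10 was 4.71-fold higher. In contrast, the neutrophil-linked inflammatory genes Il1b (0.734-fold) and Cxcl2 (0.746-fold) lay below the C1q-zero level without passing the 2-fold mark. Of other complement genes, C5ar1, the C5a receptor, was 2.80-fold higher, and C3 at 1.84-fold did not pass the mark.

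Of 11 monocyte genes 5 were higher and none was lower, with a median of 1.52-fold. Clec4a3 (6.06-fold) and Ms4a6c (4.49-fold) were higher, while Ccr2, the receptor that draws monocytes from the marrow, stood at 472 against 486 CPM (0.971-fold). In the interferon and innate sensing list, 2 of 10 genes were higher, the receptors Tlr4 (3.14-fold) and P2rx7 (2.33-fold), and 2 were lower, Isg20 (0.371-fold) and Rsad2 (0.458-fold).

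Erythroid genes were lower by CPM but not absent. All 20 stood below the C1q-zero level, 17 of them at least 2-fold, with a median of 0.42-fold. Slc4a1, the band 3 anion exchanger of red cells, stood at 18863 against 50452 CPM (0.374-fold), Klf1, the erythroid transcription factor, at 5549 against 13357 CPM (0.415-fold), and Hemgn at 0.331-fold. A C1q-high macrophage held 32.6 erythroid counts on average against 43.1 in a C1q-zero cell, and 4532 of them (50.1%) held at least 10. In the untreated spleen 28.4% of C1q-high macrophages held as many. Whether these transcripts lie in the macrophage, in engulfed cells or in overlapping neighbors was not tested, and their position within the outline is given below.

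Lists of other cell types were mixed, with medians from 0.455-fold for neutrophil to 1.62-fold for follicle genes. Neutrophil genes were lower in 7 of 13 cases, with granule genes at the bottom of all genes measured (Fcnb 0.221-fold, Ctsg 0.238-fold, Pglyrp1 0.295-fold, Mpo 0.328-fold), along with Rhd of erythroblasts (0.297-fold), the mitochondrial iron importer Slc25a37 (0.343-fold), Plek2 (0.363-fold), Mrgpra2a and Gfap. T cell genes were lower in 4 of 12 cases, among them Cd3e (0.469-fold) and Cd8a (0.406-fold). Cd4 was the exception, at 3041 against 1087 CPM (2.80-fold, 2.68–2.92). Pf4, a platelet chemokine, was 3.63-fold and Cd93 2.06-fold higher, whereas the other megakaryocyte and endothelial genes measured were not. None of 9 stromal genes passed either mark (median 1.39-fold), and the megakaryocyte and platelet median was 1.05-fold. Both measured NK cell genes and 3 of 4 cell cycle genes were lower, and of the follicle genes Cxcr5 was lower (0.370-fold) and Cxcl13, also a chemokine, higher (2.87-fold). Against the 10361 C1q-zero cells whose counts of other genes lay between the quartiles of the macrophages, Cd3e was 1.37-fold and Cxcr5 1.75-fold higher rather than lower, so the lower T cell and follicle levels depended on which C1q-zero cells were used.

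**Figure D1:**
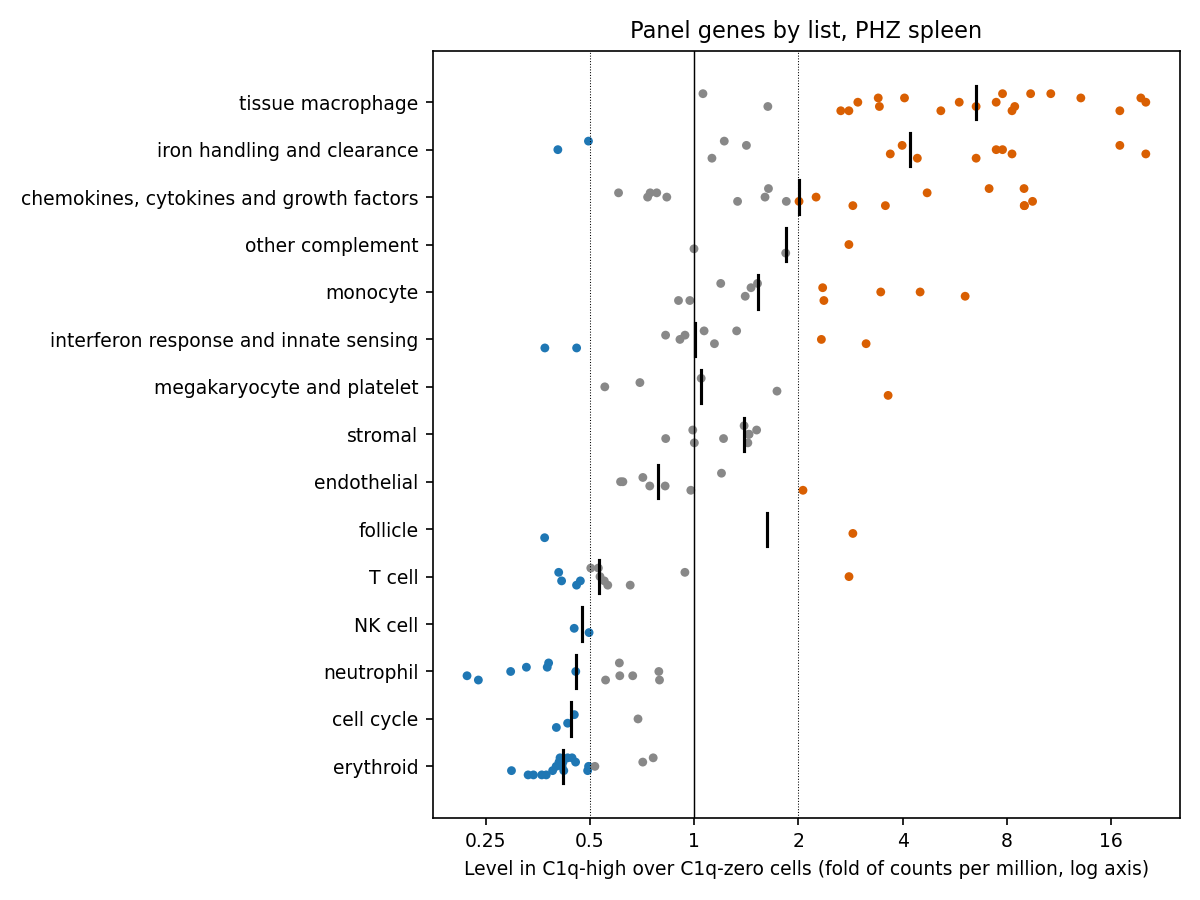
Each point is a gene that entered the comparison of C1q-high macrophages with C1q-zero cells in the PHZ spleen, placed by its list on the vertical axis and by its fold (C1q-high over C1q-zero CPM, log axis) on the horizontal axis. Orange points were at least 2-fold higher, blue points at least 2-fold lower and grey points between, the dotted lines mark 0.5 and 2, and black bars mark the median of each list, from 6.52 for tissue macrophage genes to 0.42 for erythroid genes.

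Levels changed in order with the C1q count rather than at the limit. Over cells with 0, 1 to 2, 3 to 9, 10 to 19 and at least 20 C1q counts, Mrc1 stood at 798, 1576, 4182, 9012 and 13345 CPM. Over the same steps Marco went from 819.9 to 21173 CPM, Vcam1 from 1694 to 24461 and Timd4 from 94.8 to 3001. Slc4a1 went the other way, at 50452, 48038, 39333, 23962 and 8398 CPM. Of 226 genes, 60 were higher at every step and 86 lower at every step, and these included 17 of 21 tissue macrophage genes and 17 of 20 erythroid genes respectively. Cd163 broke the order, with 648 CPM at 10 to 19 C1q counts and 471 at 20 or more.

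The set was then divided by Mrc1 and by Timd4, in each case comparing macrophages with at least 2 counts with those with 0. The gene used for a division was left out of its totals and counts, and a gene counted as apart at 1.5-fold if it had at least 500 counts. Mrc1 reached 2 counts in 3513 macrophages (38.8%, 37.8–39.9), was 1 in 1947 and 0 in 3585. Timd4 reached 2 counts in 645 (7.13%, 6.61–7.68), was 1 in 759 and 0 in 7641. The divisions hardly met, and 52 macrophages held at least 2 counts of both. Mrc1 reached 2 counts in 8.06% of the macrophages with at least 2 Timd4 counts and in 43.2% of those with 0.

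By Timd4, 46 of 190 genes (24.2%) were at least 1.5-fold higher in macrophages with at least 2 counts and 62 (32.6%) lower, 56.8% together. Per cell the split was 73 and 53, and with the erythroid genes out of the total 24 and 79. Cxcl13, the chemokine that draws B cells to follicles, was the highest, at 18764 against 2866 CPM (6.55-fold, 6.22–6.89). Siglec1 stood at 6483 against 1069 CPM (6.06-fold, 5.562–6.604). Marco stood at 35241 against 10666 CPM (3.30-fold, 3.20–3.42), so as a set these cells were higher in several receptors known from the marginal zone. Siglec1 was seen in 54.7% and Marco in 85.3% of them, and how often single cells held both was not counted.

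Other genes higher in the same cells were C3 (3.57-fold), Cp, the ferroxidase ceruloplasmin (3.34-fold), Dnase1l3, a nuclease for extracellular chromatin (4.13-fold), Igfbp3 (4.66-fold), Hpgd, which degrades prostaglandins (3.51-fold), Hap1, Kcnj16, Fbln5, Cd4 (3.19-fold), Il18 (2.99-fold), Igf1 (2.53-fold) and Il10 (2.35-fold). Vcam1 at 1.94-fold and Spic at 1.82-fold also passed the mark, but Slc40a1 at 1.34-fold, Cd68 at 1.30-fold and Ms4a7 at 0.761-fold did not.

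Lower in the macrophages with Timd4 were Cd163 (60.2 against 683 CPM, 0.0881-fold, 0.0379–0.174), Mrc1 (2053 against 11764 CPM, 0.175-fold), F13a1, coagulation factor XIII (0.237-fold), Adgre1 (0.286-fold), Cd93 (0.304-fold), the acute phase gene Saa3 (0.321-fold), Cd5l, a scavenger-associated protein (0.338-fold) and Ccl7 (0.430-fold). Ccl9 and Ccl2 differed little, at 1.13-fold and 0.973-fold. Chemokines, cytokines and growth factors went both ways, with 6 of 18 higher, 3 lower and a median of 1.06-fold. Stromal genes were higher in 4 of 7 cases (median 1.55-fold, 12.8 against 7.15 counts per cell), among them Bgn, Col1a2 and Pdgfrb, and their part in the other differences was not tested. Of the follicle genes Cxcr5 was higher as well (2.30-fold). T cell genes summed to 2.54 against 1.27 counts per cell, with 1 of 6 higher (Cd4) and 1 lower. The part of lymphoid neighbors in these values was not tested either. Of 20 erythroid genes all were lower, with a median of 0.10-fold, and the summed list gave 6.03 against 37.2 counts per cell. Klf1, for example, stood at 316 against 6566 CPM and Slc4a1 at 1632 against 22232. The 10 lowest genes were Klf1, Slc4a1, Prx, Hemgn, Gata1, Plek2, Rhd, Tspan8 and the granulocyte genes Mpo and Elane.

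These folds depended on the macrophages compared. Against only the 2217 macrophages with 0 Timd4 counts within 40 µm of one with at least 2, Cxcl13 was 2.14-fold, Siglec1 3.65-fold, Marco 1.89-fold, Il18 1.95-fold and Igf1 1.85-fold higher, and Mrc1 was at 0.203-fold, F13a1 at 0.244-fold, Cd93 at 0.280-fold and Adgre1 at 0.361-fold. Vcam1 (1.32-fold) and Spic (1.37-fold) no longer passed. The stromal list turned, with a median of 0.839-fold and 0 of 7 genes above 1, and in macrophages with under 10 erythroid counts its median was 0.804-fold with 1 of 7 above 1. Over the 14 erythroid genes that entered against neighbors the median was 0.593-fold, with Hemgn at 0.456-fold and Slc4a1 at 0.594-fold. The receptor differences by Timd4 were thus also seen among close neighbors, and the erythroid differences were smaller among them.

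By Mrc1, 22 of 189 genes (11.6%) were at least 1.5-fold higher with at least 2 counts and 43 (22.8%) lower, 34.4% together, or 43 and 24 per cell and 34 and 35 with the erythroid genes out of the total. Cd163 led, at 937 against 259.7 CPM (3.61-fold, 3.01–4.35). Adgre1 stood at 4311 against 1987 CPM (2.17-fold, 2.02–2.33), F13a1 at 1.95-fold, Cd93 at 1.93-fold, Ccl7 at 1.91-fold and Cd5l at 1.89-fold. Erythroid genes were higher in 10 of 20 cases with a median of 1.498-fold, among them Gata1 (1.65-fold) and Klf1 (1.60-fold), next to Mylk3, Prx and Pf4. With at least 4 Mrc1 counts against 0 the erythroid median was 1.26-fold, with 19 of 20 genes above 1. At that limit 11 of 175 genes were higher and 48 lower.

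Lower with Mrc1 were 5 of 6 T cell genes, both follicle genes, 4 of 7 stromal genes (median 0.616-fold, 6.98 against 8.96 counts per cell) and 4 of 10 genes of interferon response and innate sensing. Timd4 stood at 479.8 against 3897 CPM (0.123-fold), Cxcr5, the follicular homing receptor, at 0.183-fold, Cxcl13 at 0.267-fold, Cd3d at 0.294-fold, Satb1 at 0.306-fold, Cd4 at 0.311-fold and Cd3e at 0.312-fold, with Dnase1l3, Igfbp3 and Ccl5 completing the 10 lowest. Spic (1.06-fold), Slc40a1 (1.08-fold) and Cd68 (0.997-fold) were nearly equal on both sides. When macrophages holding any Timd4 were left out, Cd163 stood at 2.99-fold and Adgre1 at 1.78-fold, the erythroid median was 1.1997-fold, and Siglec1 turned from 0.595-fold to 1.11-fold.

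The combination of both genes gave 3301 macrophages with Mrc1 only (at least 2 Mrc1 and 0 Timd4 counts, 36.5%), 497 with Timd4 only (5.49%), 2639 with neither (29.2%) and 2556 with a single count of either. Siglec1 stood at 1194 CPM with Mrc1 only, 6687 with Timd4 only and 1102 with neither. Cxcl13 stood at 1688, 19507 and 4869, and Vcam1 at 16664, 29821 and 16540.4. The macrophages with neither gene followed those with Mrc1 only in Siglec1 and Vcam1 but lay between in Cd163 (961, 61.6 and 329 CPM) and Adgre1 (4342, 791 and 2496 CPM). They held fewer counts, a median of 133 against 172 and 178, and had smaller outlines, 76.9 against 93.7 and 95.01 µm², so lower depth and the absence of a count went together.

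**Figure D2:**
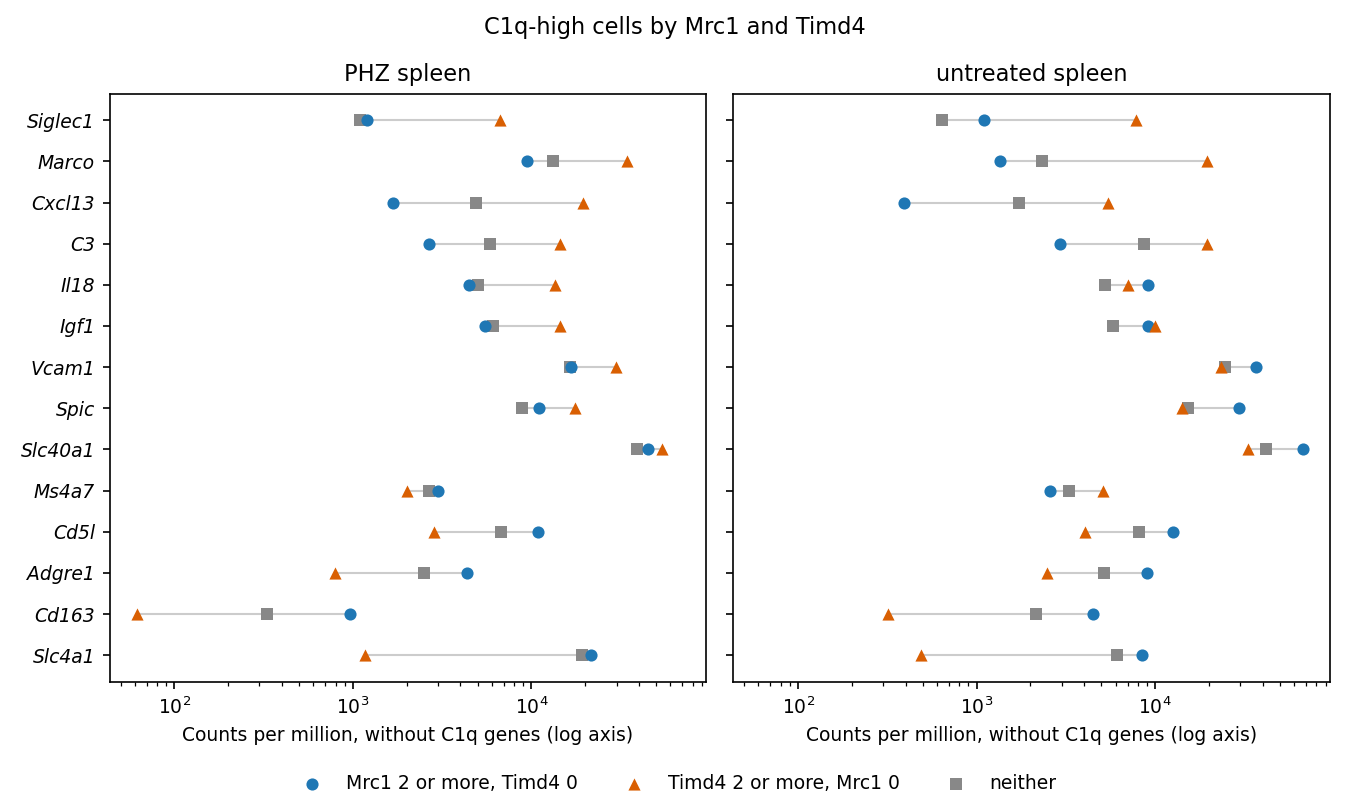
Level in CPM (horizontal log axis) of 14 genes (vertical axis) in C1q-high macrophages of the PHZ spleen (left) and the untreated spleen (right). Blue circles mark Mrc1 only (3301 and 6093 cells), orange triangles Timd4 only (497 and 562) and grey squares neither gene (2639 and 1579). In the PHZ panel triangles lie farthest left for Ms4a7, Cd5l, Adgre1, Cd163 and Slc4a1 and farthest right for the other genes. In the untreated panel they lie farthest right for Siglec1, Marco, Cxcl13, C3, Igf1 and Ms4a7. There they lie between the other marks for Il18 and farthest left for the remaining genes.

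Macrophages with Timd4 were unevenly spread over the section. By eye, in the map of the section, macrophages with Timd4 only formed bands along the borders of dense areas with few other C1q-high cells. Those with Mrc1 only appeared spread between these areas. Neither bands nor borders were measured. Over 144 square tiles of 200 µm with at least 20 C1q-high macrophages, the share with at least 2 Timd4 counts ran from 0 to 33.9% with a median of 0, and 82 tiles had none. The share with at least 2 Mrc1 counts ran from 5.26% to 77.3% with a median of 42.3%. From a macrophage with at least 2 Timd4 counts the nearest one with at least 2 Mrc1 counts was a median of 18.4 µm away, and 95.04% had one within 50 µm. In the other direction, from the 3513 Mrc1 to the 645 Timd4 macrophages, the median was 142.7 µm, and 31.1% had one within 50 µm.

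C1q-high macrophages lay close together. The nearest other one was a median of 9.77 µm away, and of the 10 nearest cells 25.9% were C1q-high, against 9.56% of all cells in the section. Around C1q-zero cells it was 3.29%, but these were selected on having no C1q counts, which an outline can also take in from a neighbor. Around macrophages with at least 2 Timd4 counts 39.7% were C1q-high and 13.8% also held at least 2 Timd4 counts.

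**Figure D3:**
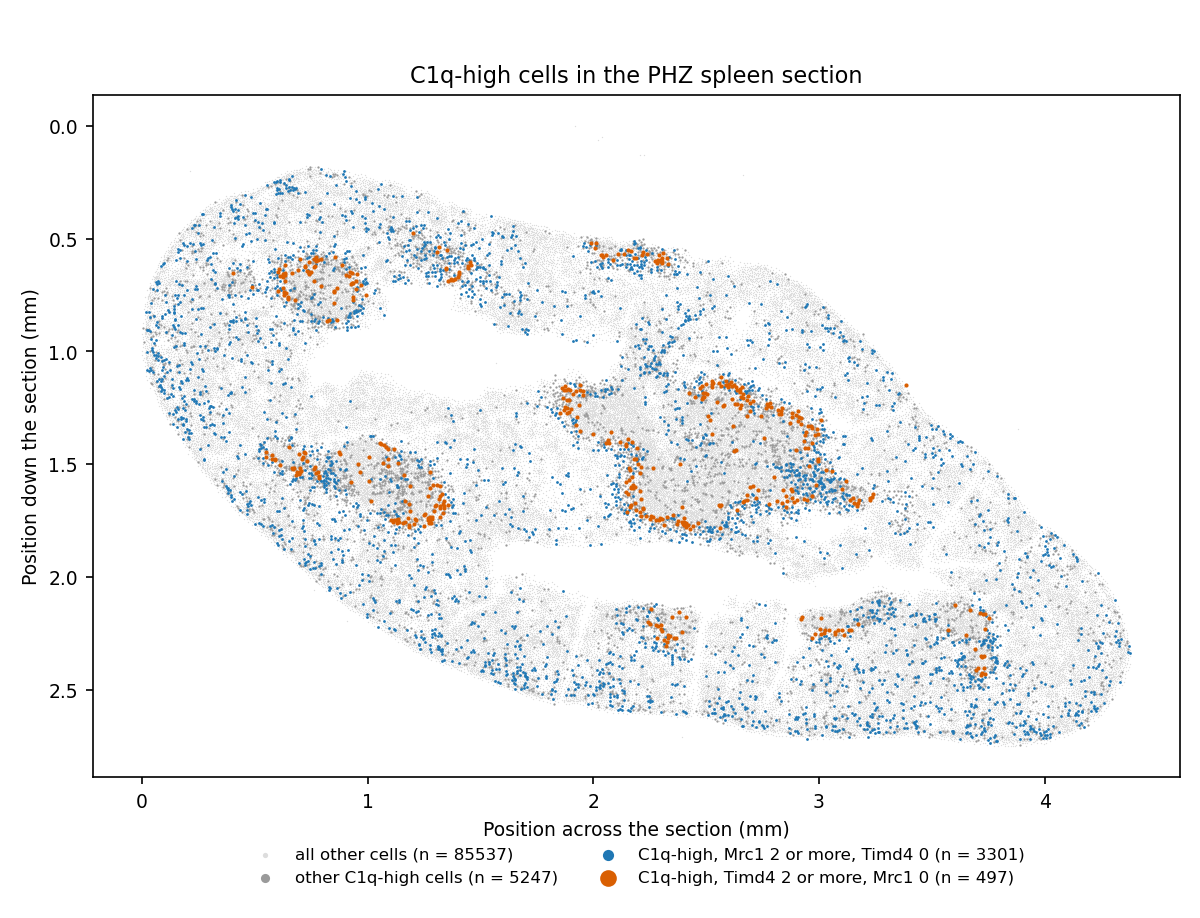
Position of every cell in the PHZ spleen section, with both axes in mm from the corner of the imaged area. Light grey marks 85537 cells that are not C1q-high, dark grey other C1q-high macrophages (5247), blue those with Mrc1 only (3301) and orange those with Timd4 only (497), which by eye appear in bands at the borders of dense areas.

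The cells around the macrophages were described by the counts of each list per surrounding C1q-zero cell within 40 µm. Most of the nearest cells were thereby left out. Of the 10 nearest cells, 14.8% were C1q-zero for all C1q-high macrophages and 7.66% for those with at least 2 Timd4 counts. Around all C1q-high macrophages a surrounding cell held 31.7 erythroid counts, against 36.9 around C1q-zero cells (0.860-fold). Around macrophages with at least 2 Mrc1 counts it held 46.1 (1.25-fold), and around those with at least 2 Timd4 counts 3.58 (0.0971-fold). Cell cycle genes followed, with 4.81, 0.873 and 3.63 counts around Mrc1 macrophages, Timd4 macrophages and C1q-zero cells. As a share of counts, erythroid genes made up 44.2% near Mrc1 macrophages, 6.10% near Timd4 macrophages and 42.5% near C1q-zero cells, and over all C1q-zero cells of the section a cell held 43.1 erythroid counts. By share the surroundings of Mrc1 macrophages were thus close to those of C1q-zero cells, and those of Timd4 macrophages were poor in erythroid transcripts.

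Lymphoid genes gave the mirror image. T cell genes amounted to 2.92 counts per surrounding cell near Timd4 macrophages, 0.915 near Mrc1 macrophages and 1.64 near C1q-zero cells. The follicle genes Cxcr5 and Cxcl13 amounted to 1.59, 0.294 and 0.412. Compared as CPM in surrounding C1q-zero cells, Cxcr5 stood at 10567 near macrophages with Timd4 only and 833 near those with Mrc1 only, Cd3e at 8693 and 1218, and Slc4a1 at 2242 and 48636. Surrounding cells held fewer counts in all near Timd4 macrophages, 58.8 against 104 near Mrc1 macrophages, so these differences in counts per cell include a difference in depth that the CPM values do not. Within the outlines of Timd4 macrophages, Cxcl13 (3.87 counts per cell) and the surrounding follicle signal were high together, and the part of the surrounding cells in it was not tested.

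The surroundings differed with distance, for erythroid counts mainly around Timd4 macrophages. From the ring at 0 to 10 µm to the ring at 90 to 100 µm, erythroid counts per surrounding cell went from 2.27 to 8.63 around macrophages with Timd4 only and from 46.1 to 43.2 around those with Mrc1 only. Follicle counts went from 2.10 to 0.999 around the former. Around the latter, T cell counts went from 0.658 to 1.18. Cells with neither gene had 22.1 erythroid counts in the nearest ring and 25.1 in the farthest.

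**Figure D4:**
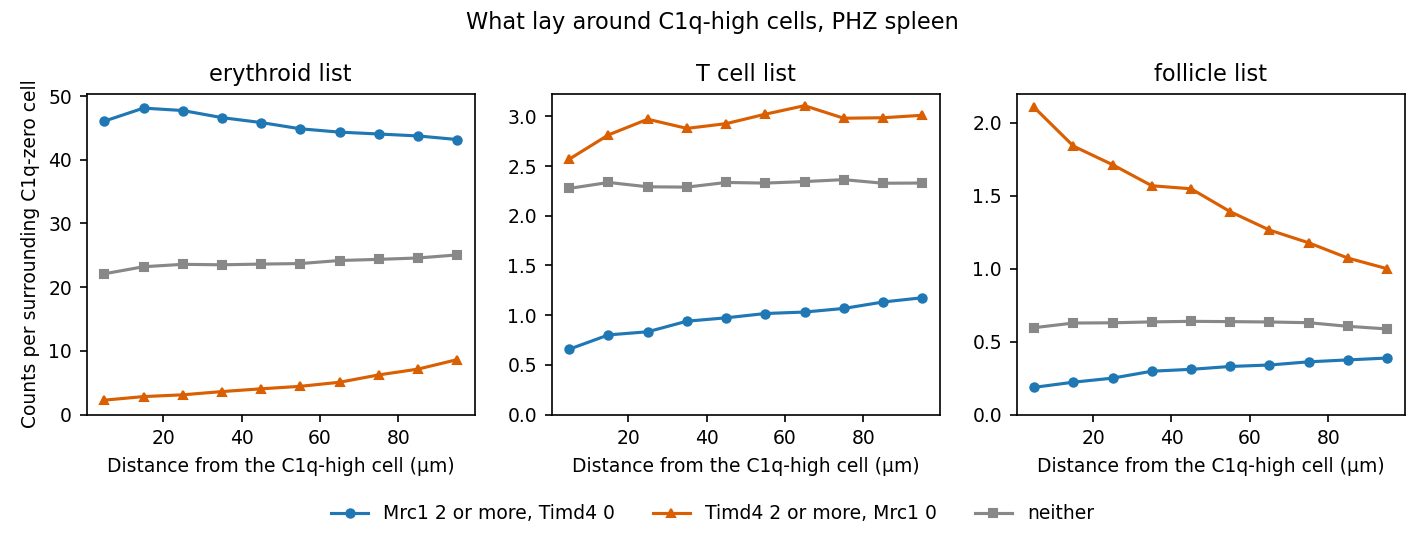
Counts per surrounding C1q-zero cell (vertical axis) of the erythroid, T cell and follicle lists, in separate panels, in rings of 10 µm by distance from the macrophage in µm (horizontal axis), around macrophages with Mrc1 only (blue), Timd4 only (orange) and neither gene (grey). Erythroid counts stay between 43.2 and 48.1 for Mrc1 only and climb from 2.27 to 8.63 for Timd4 only.

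The position of single transcripts relative to the nucleus was used to describe where in the outline each group of genes lay. In C1q-high macrophages 40.6% of transcripts were over the nucleus, which made up 27.8% of the outline. C1q transcripts were over it in 33.7% (33.5–33.9), tissue macrophage genes in 38.1% (37.9–38.2) and iron genes in 37.3%. Erythroid transcripts within the same outlines were over the nucleus in 50.3% (50.2–50.5), T cell transcripts in 54.4% and NK cell transcripts in 69.3%. Megakaryocyte and platelet genes had the lowest share of the lists, at 24.0%, with Ppbp at 13.1%. Genes of the tissue macrophage list also differed among themselves, with Spic at 53.1%, Siglec1 at 50.5%, Cd68 at 30.5% and Marco at 32.3%. The erythroid gene Slc4a1 was at 51.3%. What sets the position of a transcript was not tested. In all, 8392 macrophages (92.8%) had at least 1 C1q transcript over the nucleus, with a median of 5. In C1q-zero cells the nucleus made up a larger part of the outline, 38.6%. There the erythroid share over the nucleus was 58.0%, where all genes gave 56.5%.

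The untreated spleen, under the same rule, held 12060 C1q-high macrophages of 108338 cells (11.1%, 10.9–11.3). They held a median of 134 counts of other genes, with a median outline of 52.0 µm², smaller than in the PHZ spleen. Outlines of C1q-zero cells (31.2 against 42.8 µm²) and of cells with 1 to 9 C1q counts (37.0 against 56.1 µm²) were smaller as well. Of 243 genes with at least 500 counts, 56 (23.0%) were at least 2-fold higher in the PHZ macrophages and 60 (24.7%) at least 2-fold lower, with a median of 0.91-fold. In C1q-zero cells 59 of 313 genes (18.8%) were higher and 126 (40.3%) lower. In both directions together 47.7% were apart in the macrophages and 59.1% in the C1q-zero cells. Counted per cell, the macrophage split was 65 higher and 49 lower, and with the erythroid genes out of the total 63 and 52. In C1q-zero cells erythroid genes made up 451223 CPM after PHZ and 40785 without, against 187811 and 80678 in macrophages. A larger erythroid part lowers the CPM of all other genes, so folds between the spleens were lowered more in C1q-zero cells. The C1q-zero folds were not repeated with the erythroid genes out of the total.

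Several chemokines were among the genes with the highest folds. Ccl7 stood at 1805 against 34.9 CPM (51.8-fold, 40.3–67.7), Ccl2 at 2538 against 84.9 (29.9-fold, 25.4–35.4), Ccl9 at 26515 against 1206 (22.0-fold, 21.0–23.0) and Ccl12 at 697 against 54.5 (12.8-fold, 10.4–15.9). In C1q-zero cells the same 4 genes were 3.04-fold, 5.42-fold, 3.01-fold and 1.87-fold higher. Il10, an anti-inflammatory cytokine, was 11.2-fold higher in macrophages (822 against 73.6 CPM) and 1.07-fold in C1q-zero cells. Saa3, like the 4 chemokines above, was higher in both sets and more so in macrophages (47.5-fold and 14.8-fold). By CPM, without allowance for the erythroid part, the neutrophil attractant Cxcl2 stood 14.4-fold and 13.4-fold higher in macrophages and C1q-zero cells. Of 20 genes in the list 10 were higher (median 2.34-fold over all 20) and 3 lower, Il1b (0.425-fold), Ccl5 (0.264-fold) and Pdgfb (0.492-fold). Other genes among the 10 highest were Podxl, Serpina3n and the erythroid gene Plek2.

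Receptor and iron genes divided. Marco stood at 13892 against 3257 CPM (4.27-fold, 4.14–4.39), C5ar1 was 6.91-fold and Cd93 3.28-fold higher. Cd163 stood at 589.7 against 3784 CPM (0.156-fold, 0.145–0.167), Trf at 3898 against 19338 CPM (0.202-fold), Spic at 10604 against 25487 CPM (0.416-fold) and Adgre1 at 0.395-fold. Slc40a1 (0.722-fold), Vcam1 (0.543-fold), Mrc1 (0.580-fold), Timd4 (0.626-fold), Siglec1 (1.16-fold) and Ms4a7 (0.998-fold) stayed within 2-fold. Of 22 tissue macrophage genes 3 were higher, 3 lower and 16 between.

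Erythroid genes were at least 2-fold higher in 14 of 20 cases in the PHZ macrophages (median 2.47-fold) and in 18 of 20 in C1q-zero cells (median 27.8-fold). The macrophage median was 1.44-fold with at least 20 C1q counts. All 4 cell cycle genes were higher, all 3 NK cell genes lower (Ncr1 0.0238-fold, Klrb1c 0.133-fold, Klra8 0.143-fold) and 6 of 12 T cell genes lower. The remaining of the 10 lowest were Car3 (28.7 against 1758 CPM), Retn, Coch, Cyp4b1, Retnla, Cd8a and Kcnj16. These lists moved the same way in C1q-zero cells, where the NK cell median was 0.213-fold and the T cell median 0.224-fold. Stromal genes summed to 8.02 counts per PHZ macrophage against 3.86 without treatment, with 3 of 11 higher, 2 lower and a median of 1.15-fold. With at least 20 C1q counts the stromal median was 2.14-fold over 8 genes. The stromal part in the other differences was not tested.

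**Figure D5:**
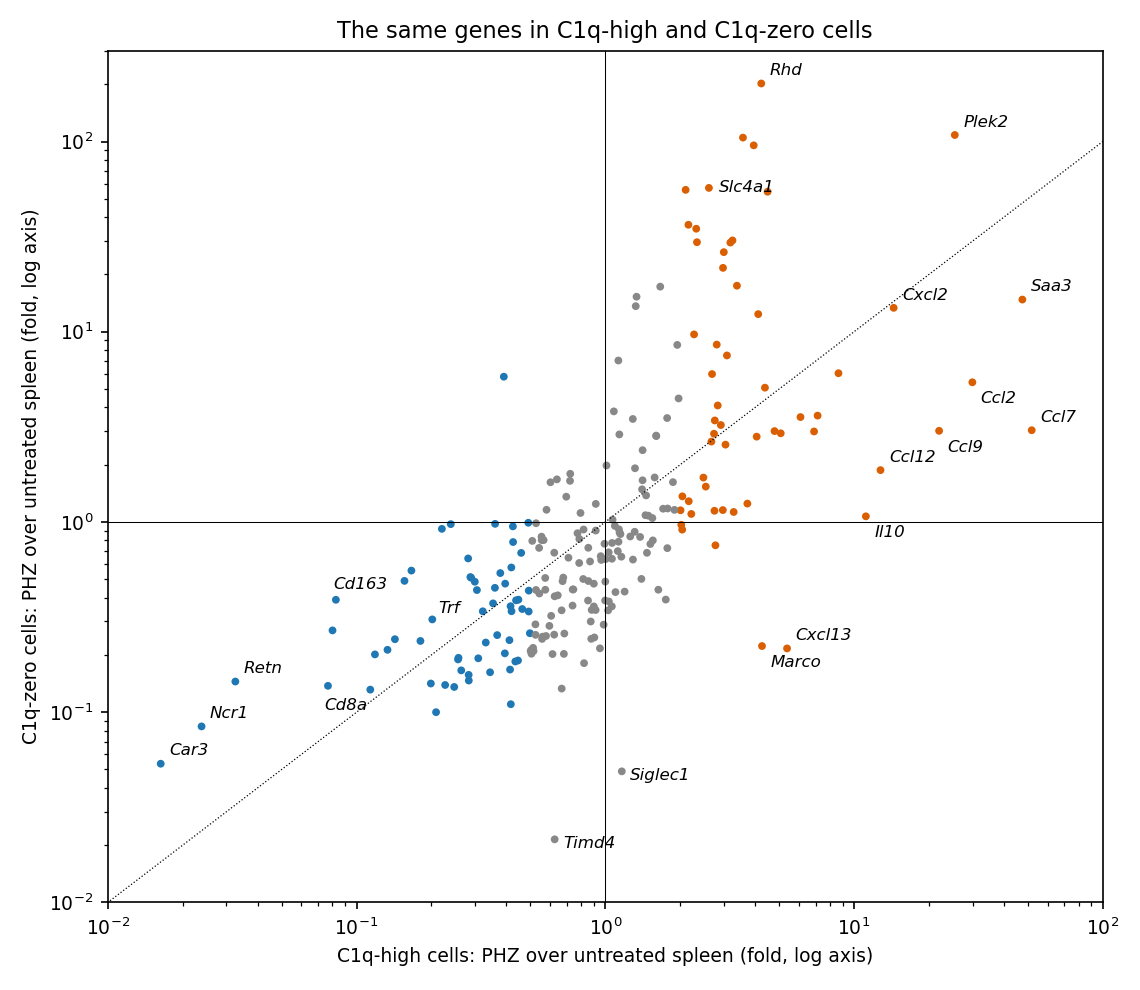
Each point is a gene, placed by its fold between PHZ and untreated spleen in C1q-high macrophages (horizontal log axis) and in C1q-zero cells (vertical log axis), orange if at least 2-fold higher, blue if at least 2-fold lower in the macrophages and grey between, with a dotted line where both folds are equal. Ccl7, Ccl2, Ccl9, Ccl12 and Il10 lie right of the line, erythroid genes such as Rhd and Slc4a1 above it, and Marco and Cxcl13 are higher in macrophages but lower in C1q-zero cells.

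The kinds of macrophage were also compared between the spleens. Mrc1 reached 2 counts in 60.8% of untreated C1q-high macrophages (59.9–61.7), against 38.8% after PHZ, and Timd4 in 8.28% against 7.13%. Macrophages with Mrc1 only had the pattern of the whole set, with Ccl7 95.9-fold, Ccl2 49.2-fold, Ccl9 25.3-fold and Marco 7.01-fold higher, and Cd163 at 0.214-fold and Spic at 0.371-fold. In macrophages with Timd4 only, 497 and 562 cells, Ccl9 was 42.8-fold higher but Marco only 1.77-fold, and Spic at 1.25-fold, Vcam1 at 1.28-fold and Slc40a1 at 1.64-fold ran opposite to the Mrc1 cells. Markers of other cell types also differed between these Timd4 cells, with stromal genes summing to 59765 CPM after PHZ and 18850 without, and T cell genes to 12224 and 42214, and their part in the result was not tested. The divisions overlapped more without treatment, where 311 of 998 macrophages with at least 2 Timd4 counts also held at least 2 Mrc1 counts, against 52 of 645 after PHZ. Those 311 held Cd163 at 5403 and Cxcl13 at 800.4 CPM. In the untreated spleen Timd4 went with Siglec1 (6.23-fold, against 6.06-fold after PHZ), Cxcl13 (5.60-fold, against 6.55-fold) and Marco (10.8-fold, against 3.30-fold), and Mrc1 went with Cd163 (3.06-fold, against 3.61-fold) and Adgre1 (2.16-fold, against 2.17-fold).

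Cells with Timd4 differed in their C1q. In the untreated spleen 7046 cells of any C1q count held at least 2 Timd4 counts, and 2838 of them (40.3%, 39.1–41.4) had 0 C1q counts while 998 (14.2%, 13.4–15.0) were C1q-high. In the PHZ spleen only 1037 cells held at least 2 Timd4 counts, of which 13 (1.25%, 0.669–2.13) had 0 C1q counts and 645 (62.2%, 59.2–65.2) were C1q-high. Siglec1 went the same way, with 2337 cells and 45.4% without C1q in the untreated spleen and 672 cells and 1.34% in the PHZ spleen. Cells with at least 2 Marco counts were not fewer, 7859 in the untreated and 8015 in the PHZ spleen, while the share of them without C1q was 31.7% and 4.12%. The untreated cells with Timd4 and 0 C1q counts held Siglec1 at 13203 CPM, Cxcl13 at 18251 and Marco at 14914, but Mrc1 at 294. Cells with at least 2 Mrc1 counts did not show this, since 1.54% of 12921 cells had 0 C1q counts in the untreated and 3.89% of 7509 in the PHZ spleen. The C1q-high set therefore took in most Timd4 cells after PHZ and a small part of them without treatment. The comparison of Timd4 macrophages between the spleens thus set unlike parts of the Timd4 cells side by side.

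In the E14.5 liver 3112 of 117329 cells (2.65%) and in the P8 marrow 592 of 52594 cells (1.13%) met the same rule. Timd4 reached 2 counts in 38.9% and 8.95% of them and Mrc1 in 51.4% and 57.9%. In the E14.5 liver the division by Timd4 did not go with Cxcl13, which stood at 76.4 against 73.3 CPM (17 and 13 counts), and in the P8 marrow Cxcl13 was too sparse to compare (1 and 2 counts). Siglec1 was 2.04-fold and 2.08-fold higher with Timd4 in these tissues, and Cd5l 2.21-fold and 9.25-fold higher, where in the PHZ spleen it was 0.338-fold. Ccl9 stood at 2254 CPM in the E14.5 and 2987 in the P8 C1q-high macrophages, against 26515 in the PHZ spleen, and Saa3 at 42.8 and 193 against 2110.1. The slide differed between these sections and the spleens, so tissue and slide cannot be told apart.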

How the data were processed

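Per the run descriptions, the authors' deposited counts are transcripts per gene and segmented cell, made with Xenium Onboard Analysis 1.7.1.0 (the methods name Space Ranger), with no normalization, from transcripts with a quality score of at least 20. Deposited with them were the position and areas of each cell, and for each transcript the quality score and whether it lies over a nucleus, both as the authors gave them. Rebuilding the counts from the single transcripts gave the same table. The genome build is not given in the sources used here.

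C1q-high macrophages, C1q-zero cells and the lists were chosen with earlier results of these data known. The 15 lists were tissue macrophage, iron handling and clearance, monocyte, chemokines, cytokines and growth factors, interferon response and innate sensing, other complement, erythroid, cell cycle, T cell, NK cell, follicle, neutrophil, megakaryocyte and platelet, endothelial, and stromal. Named are the marker genes, genes of these lists past the fold or defining a list, and the 10 highest and 10 lowest of each comparison. Some genes that this rule names are not reported here. Summed counts were divided by the total of genes other than C1qa, C1qb and C1qc. Genes needed 1000 counts over both sets against C1q-zero cells and 500 otherwise. Intervals of a fold are exact for the ratio of 2 Poisson counts. Cell names shared with the other sections numbered 0 to 4. The calculation of folds and their intervals was tested on simulated counts, and the other steps were not. Python 3.11.15, numpy 2.4.6, scipy 1.17.1, pandas 2.3.3 and matplotlib 3.10.9 were used.

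Alternatives were other C1q and split limits, scalings, filters, comparison cells, transcripts over the nucleus and a radius of 20 µm. Comparison with neighboring Timd4-free macrophages, macrophages with Mrc1 only or Timd4 only, and for the splits the erythroid-free total and macrophages with under 10 erythroid counts, were added after the data were seen, as was the division of Timd4 cells by C1q.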

Additional observations from a re-analysis of the deposited data

Results flagged for a closer look

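Each result here went past the fold in opposite directions in the PHZ and the untreated spleen. The differences were not tested, since there was 1 section of each.

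In the comparison of C1q-high macrophages with C1q-zero cells this held for 19 of 211 genes, of which 17 are given here. Cxcl13 was 2.87-fold in the PHZ and 0.116-fold in the untreated spleen. The other 16 given were lower in the macrophages of the PHZ spleen and higher in those of the untreated spleen. For erythroid genes the fold was 0.374 after PHZ and 8.17 without for Slc4a1, 0.415 and 10.04 for Klf1, 0.418 and 5.07 for Gata1, 0.444 and 11.8 for Epor, 0.331 and 9.72 for Hemgn, and 0.297 and 14.1 for Rhd. It was 0.495 and 5.14 for Hbb-bt, 0.399 and 3.69 for Aqp1, 0.454 and 5.75 for Car2, and 0.390 and 3.41 for Ctse. In genes outside the erythroid list it was 0.380 and 4.35 for Elane, 0.328 and 3.37 for Mpo, 0.408 and 2.55 for Mylk3, 0.421 and 6.32 for Prx, 0.458 and 3.33 for Rsad2, and 0.363 and 3.38 for Tspan8. The C1q-zero cells held a median of 28 erythroid counts in the PHZ spleen and 2 in the untreated spleen, and the C1q-high macrophages 10 and 4.

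In the division by Mrc1, 2 of 173 genes did so, with folds of 0.549 after PHZ and 2.77 without for Gpihbp1 and 0.533 and 1.71 for Hpgd. In the division by Timd4 it was 7 of 175 genes, with 3.38 after PHZ and 0.449 without for Fbln5, 1.58 and 0.608 for Gng11, 2.02 and 0.283 for Gpihbp1, 2.13 and 0.473 for Mmp9, 1.55 and 0.634 for Myh11, 1.56 and 0.531 for Mylk, and 1.66 and 0.590 for Pdgfrb. Of these, Myh11 and Pdgfrb were not higher by Timd4 in the PHZ spleen against neighboring Timd4-free macrophages (0.977 and 0.839) or with under 10 erythroid counts (0.769 and 0.899), so their opposite direction depended on the macrophages compared.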

How the results depend on the processing

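No paired analysis was possible because there is 1 section per condition. The share of C1q-high cells was 9.56%, and 2.50% at 20 and 22.9% at 5 C1q counts. Against C1q-zero cells 51 of 226 genes were 2-fold higher and 49 lower, while 93 were higher and 2 lower per cell, 88 lower with the erythroid genes out of the total, 12 of 239 lower with at least 5 C1q counts and 27 lower over the nucleus. With a filter of 100 counts 55 of 416 genes were higher and 109 lower, with a median of 0.694-fold, so the near balance depended on the filter. Genes apart by Mrc1 numbered 65 of 189, and 35 of 138 in macrophages with under 10 erythroid counts. Those apart by Timd4 numbered 108 of 190, and 61 of 134 at 20 C1q counts, 56 of 142 with under 10 erythroid counts and 52 of 138 against neighboring macrophages. Between the spleens 116 of 243 were apart, and 30 of 77 with Timd4 only. In these alternatives of the divisions and the spleens fewer genes entered. Erythroid counts around macrophages, relative to those around C1q-zero cells, were 0.860-fold for all, 1.25-fold for Mrc1 and 0.0971-fold for Timd4, with 0.868, 1.28 and 0.0801 at 20 µm and 0.792, 1.12 and 0.101 over all cells that are not C1q-high. The share over the nucleus was 40.6%, and 41.0% at a quality score of 30.

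Of the named genes past the fold against C1q-zero cells, 78 of 78 stayed past it at 20 C1q counts, 44 of 82 per cell and 63 of 82 over the nucleus. Against C1q-zero cells of like depth Cd3d (1.21), Cd3e (1.37), Cxcr5 (1.75) and Satb1 (1.38) turned. Siglec1 turned in the Mrc1 division without Timd4 cells (1.11). In the Timd4 division, Col1a2 (0.930), Cybb (0.988), Diaph3 (1.01), Epsti1 (0.963), Ms4a6b (0.994), Myh11 (0.769), Pdgfrb (0.899) and Ube2c (1.07) turned with under 10 erythroid counts, and Bgn (0.943), Col1a2 (0.878), Epsti1 (0.999), Myh11 (0.977) and Pdgfrb (0.839) against neighbors. Between the spleens Epor turned at 20 C1q counts (0.867) and, with Podxl (0.851), with under 10 erythroid counts (0.343), and Spic turned with Timd4 only (1.25). At 20 C1q counts the erythroid median against C1q-zero cells was 0.189 in place of 0.42, by Mrc1 2.39 (18 of 18 genes above 1) in place of 1.498 and by Timd4 0.157 in place of 0.0963. Taking macrophages with under 10 erythroid counts caps the erythroid genes themselves, so their values there, Epor included, say nothing of a change. The causes were not tested. The depth of a median 157 counts leaves the absence of Mrc1 or Timd4 in a cell uncertain.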
